A study of Homo sapiens with 10 samples.

Results

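The proteasome genes of RPE-1 cells were compared between cells treated with sulforaphane (SFN) and cells treated with the vehicle dimethyl sulfoxide (DMSO). The members were all genes of the deposited count table whose symbol was PSM, a letter from A to G and a number, which gave 46 of the 28380 genes listed. They comprised 17 genes of the 20S core (7 PSMA and 10 PSMB), 20 of the 19S regulatory particle (6 PSMC and 14 PSMD), 4 activator genes (PSME) with the inhibitor gene PSMF1, and 4 assembly chaperone genes (PSMG). The grouping follows the symbols, so the genes counted with the 19S particle include chaperones of its assembly such as PSMD5 and PSMD10. PSMA8 and PSMB11, the core subunits of germ cells and thymus, were not analysed here. RPE-1 cells are human retinal pigment epithelial cells that were immortalized with telomerase, and SFN is an isothiocyanate from cruciferous vegetables that is known to activate the transcription factor NRF2. The 5 SFN samples received 25 µM SFN and the 5 control samples received DMSO, both for 4 h, and the labels name no genetic change or other agent in either group. The sample labels number the replicates but do not say whether they were separate cultures, so each p-value measures only the spread between these samples, which may be technical.

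The proteasome degrades proteins that carry ubiquitin chains. Its 20S core is a barrel of stacked rings, in which outer rings of α subunits (PSMA) form the gate and inner rings of β subunits (PSMB) hold the protease sites. The 19S particle caps the barrel, where PSMD subunits bind the ubiquitinated protein and remove its ubiquitin and the ring of PSMC ATPases unfolds it and threads it into the core. PSME proteins form other caps, and PSMG proteins are chaperones that build the α ring and do not remain in the finished particle. In mammalian cells the transcription factor NRF1 (gene NFE2L1) raises the proteasome genes when proteasomes are inhibited, and NRF2 (gene NFE2L2) is known to raise some of them under oxidative or electrophilic stress.

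The total count per library ranged from 15689294 to 20666692 in DMSO and from 12375860 to 17308706 in SFN, and 13378 genes, all 46 members among them, had enough counts for a test. DMSO replicate 1 stood apart from the other libraries. Across genes it had a mean Spearman correlation of 0.935 to the rest of its group, where the other DMSO libraries had 0.979 to 0.982, and its log2 CPM (counts scaled to a common library size) fell by 0.271 per doubling of transcript length relative to the mean of all libraries. The other DMSO libraries had slopes of 0.0872 to 0.148, and the slopes in SFN ranged from -0.183 in replicate 2 to 0.109 in replicate 5. The comparisons of the proteasome genes are therefore given with all 10 libraries and without DMSO replicate 1. Of 9 markers of pigment epithelium and epithelium, 8 were listed: the visual cycle gene RPE65 had 0 to 3 counts and RLBP1 0 to 4, whereas the keratin genes KRT8 and KRT18 stood at 531, 376, 362.5, 331 and 316 CPM and 241, 196, 195, 172 and 174 CPM in DMSO replicates 1 to 5. Of the 6 of these tested, none rose and 2 fell with all 10 libraries, and 2 rose and 2 fell without DMSO replicate 1. Over all genes tested, 9.07% rose and 13.9% fell with all libraries, and 22.5% and 23.5% without DMSO replicate 1. MITF and OTX2, transcription factors of pigment epithelium, fell in both fits, with log2 fold changes of -1.12 (SE 0.12) and -0.64 (SE 0.123), and -1.15 (SE 0.109) and -0.66 (SE 0.124) without DMSO replicate 1. BEST1, a channel gene of pigment epithelium, and KRT8 were at 1.17 (SE 0.559) and 0.23 (SE 0.165) with all libraries and rose without DMSO replicate 1, by 1.68 (SE 0.466) and 0.37 (SE 0.113) on the log2 scale. BEST1 stood at 41.85, 15.5, 5.42, 13.1 and 18.2 CPM in DMSO and 26.2, 107.3, 33.4, 25.4 and 19.4 CPM in SFN, in replicate order. SFN replicate 2 thus lay far above the other SFN libraries. The part of these markers in the results was not tested. Markers of blood and vessel cells had at most 18 counts in any library. The highest, CD14, stood at 0 to 0.12 CPM in DMSO and 0.28 to 1.07 CPM in SFN, too low for a test. In bulk RNA a lower share of cells that express a gene and less of its RNA per cell cannot be told apart. The known NRF2 target HMOX1 stood at 24.0, 21.6, 19.6, 16.3 and 17.9 CPM in DMSO replicates 1 to 5 and 51.7, 56.4, 52.05, 56.2 and 49.15 CPM in SFN replicates 1 to 5.

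With all 10 libraries, 4 of the 46 proteasome genes rose in SFN and none fell (edgeR's quasi-likelihood test, Benjamini-Hochberg adjusted p under 0.05 over all genes tested). The background was 9.07% of all genes tested higher and 13.9% lower, so the share of members that rose, 8.70%, lay near the background. Before adjustment, 8 members were higher and 0 lower at p under 0.05. The log2 fold change was positive in 34 members and negative in 12, with a range of -0.44 to 0.56 and a median of 0.20, against -0.03 over all genes tested. No member changed by more than 2-fold. Without DMSO replicate 1, 32 members rose and 2 fell by the same test, where the background was 22.5% higher and 23.5% lower. The median log2 fold change was then 0.45, against 0.00 over all genes, and 41 members were positive.

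**Figure D1:**
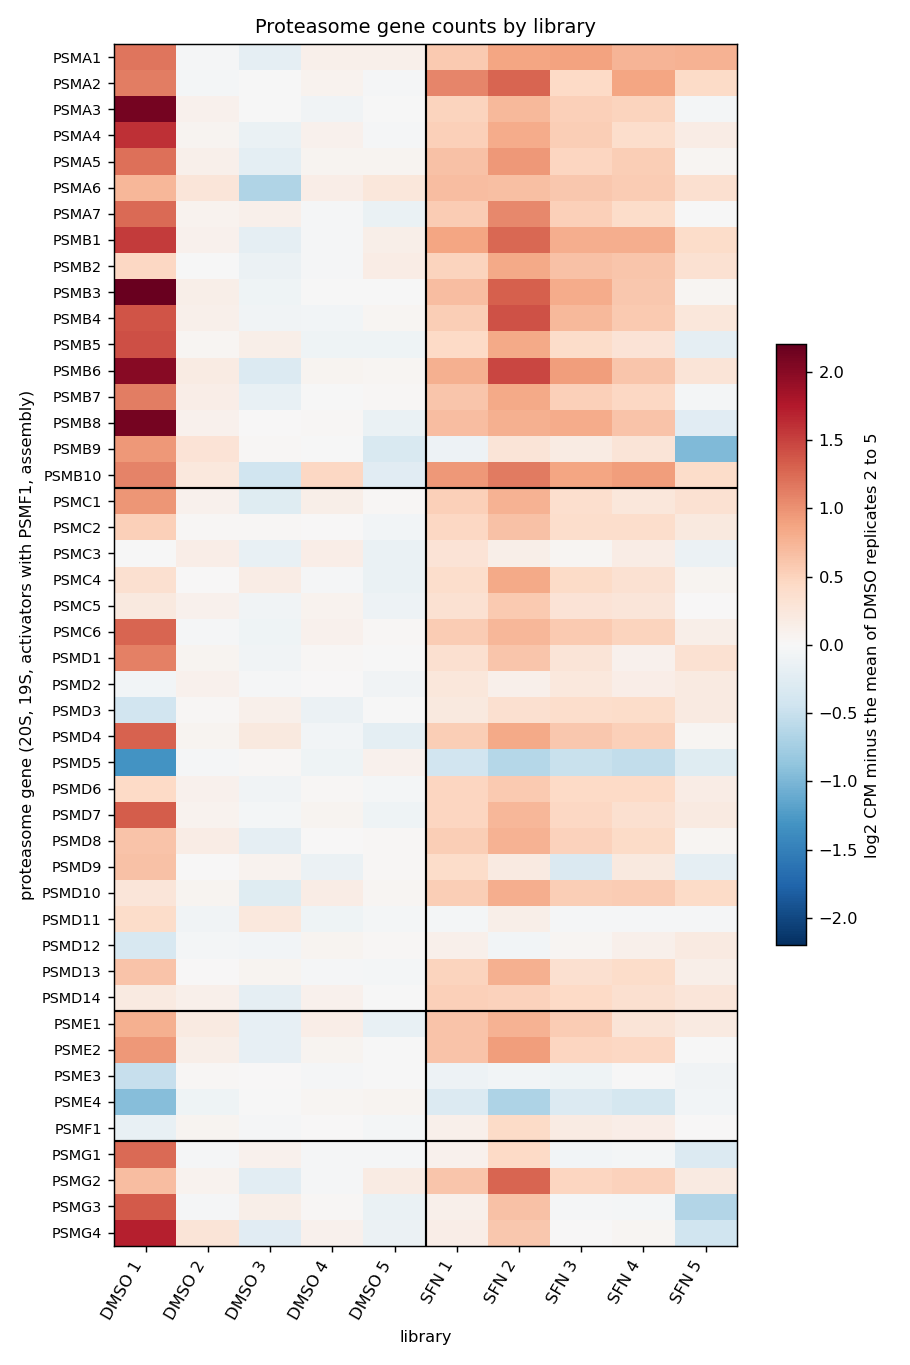
Heat map of log2 CPM of the 46 proteasome genes (vertical axis, grouped by particle) in the 10 libraries (horizontal axis), each gene relative to the mean of DMSO replicates 2 to 5. The column of DMSO replicate 1 departs from the other DMSO columns in most genes, and 38 of the 46 genes have their highest DMSO value there.

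The 4 genes that rose with all 10 libraries were PSMD10, PSMD14 and PSMD3, all counted with the 19S particle, and PSMB2 of the 20S core. PSMD10 (gankyrin, an assembly chaperone of the 19S base, chrX:108084207-108091549 in GRCh38) stood at 30.1, 26.0, 20.85, 28.1 and 25.8 CPM in DMSO replicates 1 to 5 and at 36.5, 43.5, 36.6, 36.9 and 33.5 CPM in SFN replicates 1 to 5. Every SFN library lay above every DMSO library. This gave a log2 fold change of 0.51 (SE 0.122, edgeR adjusted p = 0.00957), and 0.56 (SE 0.106) without DMSO replicate 1. PSMD10 passed the threshold under 18 of 18 alternative settings, with adjusted p from 2.9e-05 to 0.029.

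PSMD14 (chr2:161308425-161411717), the deubiquitinase that cuts ubiquitin chains off the bound protein, stood at 217, 202, 165, 201 and 187 CPM in DMSO and 269, 267, 256, 239.5 and 227 CPM in SFN, in replicate order. The groups did not overlap. PSMD14 had a log2 fold change of 0.37 (SE 0.105, edgeR adjusted p = 0.0239), and 0.41 (SE 0.0863) without DMSO replicate 1. It passed under 11 of 18 alternatives, with adjusted p from 5.8e-05 to 0.094.

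PSMD3 (chr17:39980807-39997959), a scaffold subunit of the 19S lid, stood at 70.6, 97.1, 102.5, 87.1 and 94.0 CPM in DMSO and 110, 121, 123.5, 126 and 108.5 CPM in SFN. Its groups did not overlap either, and here DMSO replicate 1 was the lowest library. PSMD3 had a log2 fold change of 0.38 (SE 0.115, edgeR adjusted p = 0.0317), and 0.30 (SE 0.0817) without that library. PSMD3 passed under 7 of 18 alternatives, with adjusted p from 0.00022 to 0.11.

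PSMB2 (chr1:35599541-35641526), a β subunit without a protease site of its own, stood at 112, 81.5, 74.5, 79.9 and 92.05 CPM in DMSO and 114, 146, 128.5, 125 and 103 CPM in SFN. DMSO replicate 1 lay within the SFN range, and the other DMSO libraries lay below it. PSMB2 had a log2 fold change of 0.49 (SE 0.136, edgeR adjusted p = 0.0224), and 0.58 (SE 0.103) without DMSO replicate 1. It passed under 13 of 18 alternatives, with adjusted p from 2.2e-06 to 0.061.

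**Figure D2:**
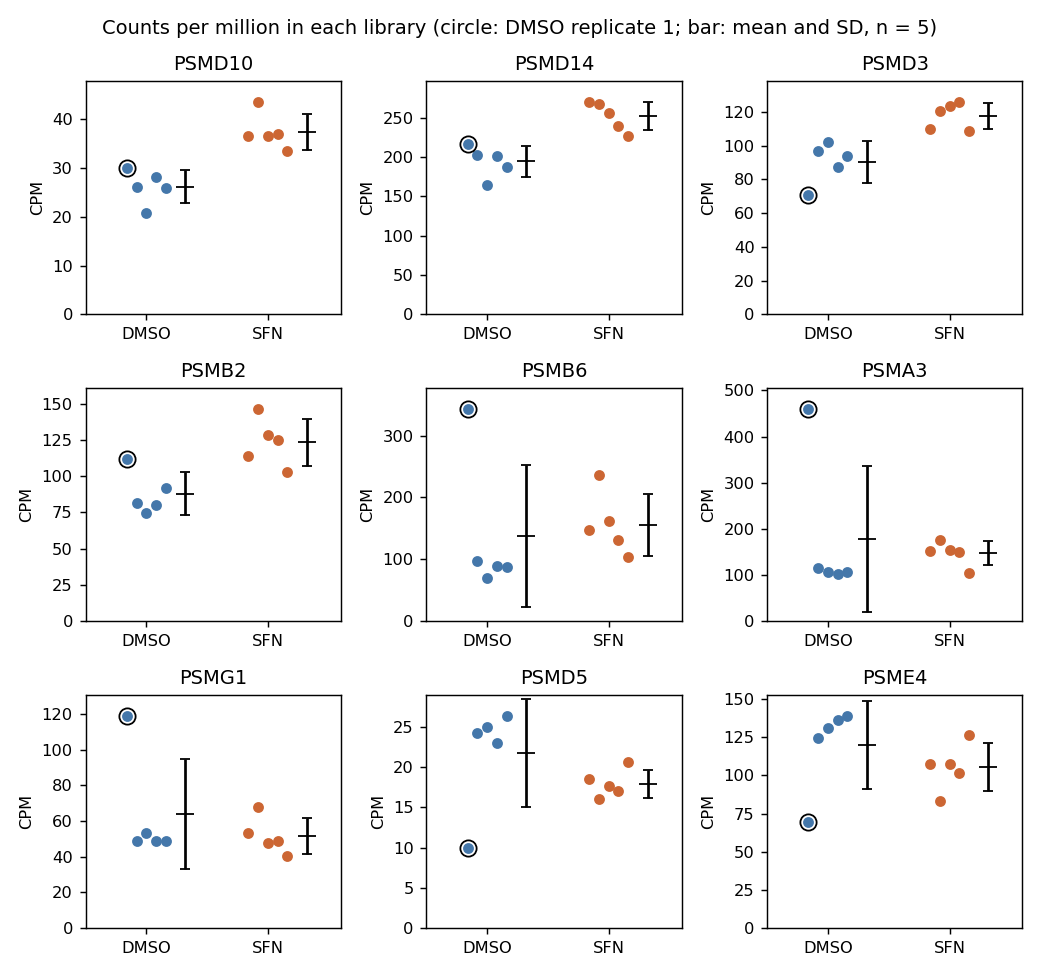
CPM (vertical axes, from 0) in each DMSO (blue) and SFN (orange) library for 9 proteasome genes, 1 panel a gene, with the mean and SD of the 5 libraries beside the points and a circle around DMSO replicate 1. In PSMD10, PSMD14 and PSMD3 all SFN points lie above all DMSO points, in PSMB6 and PSMA3 the highest point is DMSO replicate 1, and in PSMD5 and PSME4 it is the lowest.

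The sequences before the start sites of these 4 genes are printed because they are the members that rose with every library in the fit. Each is the 250 bases upstream of the start that RefSeq gives (GRCh38.p14), 5′ to 3′ on the strand of the gene. Capitals mark matches on either strand to TGACNNNGC, the core of the antioxidant response element that NRF2, NRF1 and their MAF partners bind, or to CCAAT, the box that NF-Y binds. GENCODE places the start of PSMD10 a few bases inside the window. The windows are chrX:108091543-108091792 (minus strand), chr2:161308175-161308424 (plus), chr17:39980557-39980806 (plus) and chr1:35641527-35641776 (minus).
PSMD10: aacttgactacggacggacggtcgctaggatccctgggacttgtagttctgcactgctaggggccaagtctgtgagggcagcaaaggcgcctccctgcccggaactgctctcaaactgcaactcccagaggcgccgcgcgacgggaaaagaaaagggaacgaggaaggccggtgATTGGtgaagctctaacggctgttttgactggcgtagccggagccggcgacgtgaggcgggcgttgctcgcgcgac
PSMD14: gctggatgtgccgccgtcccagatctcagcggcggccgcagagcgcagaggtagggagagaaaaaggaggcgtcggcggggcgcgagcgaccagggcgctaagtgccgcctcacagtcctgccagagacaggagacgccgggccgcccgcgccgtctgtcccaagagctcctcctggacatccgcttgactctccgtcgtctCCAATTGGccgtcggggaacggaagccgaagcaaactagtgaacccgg
PSMD3: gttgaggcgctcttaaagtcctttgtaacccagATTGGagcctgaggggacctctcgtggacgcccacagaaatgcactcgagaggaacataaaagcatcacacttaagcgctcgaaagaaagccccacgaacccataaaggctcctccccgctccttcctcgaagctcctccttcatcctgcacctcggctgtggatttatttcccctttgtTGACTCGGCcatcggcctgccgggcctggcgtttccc
PSMB2: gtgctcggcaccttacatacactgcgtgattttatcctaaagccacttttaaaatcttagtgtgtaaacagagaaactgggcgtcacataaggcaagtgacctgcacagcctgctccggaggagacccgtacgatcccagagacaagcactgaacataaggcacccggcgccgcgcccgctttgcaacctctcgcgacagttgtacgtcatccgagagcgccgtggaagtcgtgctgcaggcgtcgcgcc
PSMD3 alone of the 4 held TGACNNNGC, as TGACTCGGC. PSMD10, PSMD14 and PSMD3 held CCAAT or its reverse complement ATTGG, and PSMB2 held neither motif in this window.

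The departure of DMSO replicate 1 was large in the proteasome genes. It had the highest value of the 5 DMSO libraries in 38 of the 46 members (82.6%), against 40.5% of all genes tested. It had the highest of all 10 libraries in 25 members, against 3888 of the 13378 genes tested. It was the lowest DMSO library in 6 members, against 5976 of the 13378 genes tested. All 17 core genes and all 4 PSMG genes were highest there among the DMSO libraries, as were 15 of the 20 genes of the 19S particle and 2 of the 5 PSME and PSMF genes. The median difference in log2 CPM between DMSO replicate 1 and the mean of the other DMSO libraries was 1.25 over the core genes, 0.42 over the 19S genes, -0.16 over PSME and PSMF1 and 1.29 over PSMG. The medians of the canonical transcript length were 1017, 1950, 3182 and 1249 bases in the same order, against 3173 bases over all genes tested. Across the 46 members this difference had a Pearson correlation of -0.59 and a Spearman correlation of -0.58 with log2 transcript length, given as a description since all points share the same libraries. An offset for transcript length added to the fit with all 10 libraries left sign and call the same in 65 of 67 members and related genes. PSMD3 lost its call and PSMD6 gained one. Counts and medians with this offset added to the fit without DMSO replicate 1 are given below. The part of transcript length in the departure was not tested.

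In terms of overlap, 4 members lay higher in every SFN library than in every DMSO library and none lower, namely PSMD3, PSMD10, PSMD14 and the 19S scaffold gene PSMD2, where the background was 8.78% and 11.1%. PSMD2 stood at 814, 905, 835, 858 and 803.5 CPM in DMSO and 1008, 917, 994, 936 and 976 CPM in SFN, with a log2 fold change of 0.20 (SE 0.0919, edgeR adjusted p = 0.153), and 0.18 (SE 0.0728) without DMSO replicate 1, where it did not pass either. Without DMSO replicate 1, 20 members lay wholly higher and 1 wholly lower, against a background of 16.6% and 19.5%. Of the 20, 8 belonged to the core, 11 to the 19S particle and 1 was PSMG2.

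**Figure D3:**
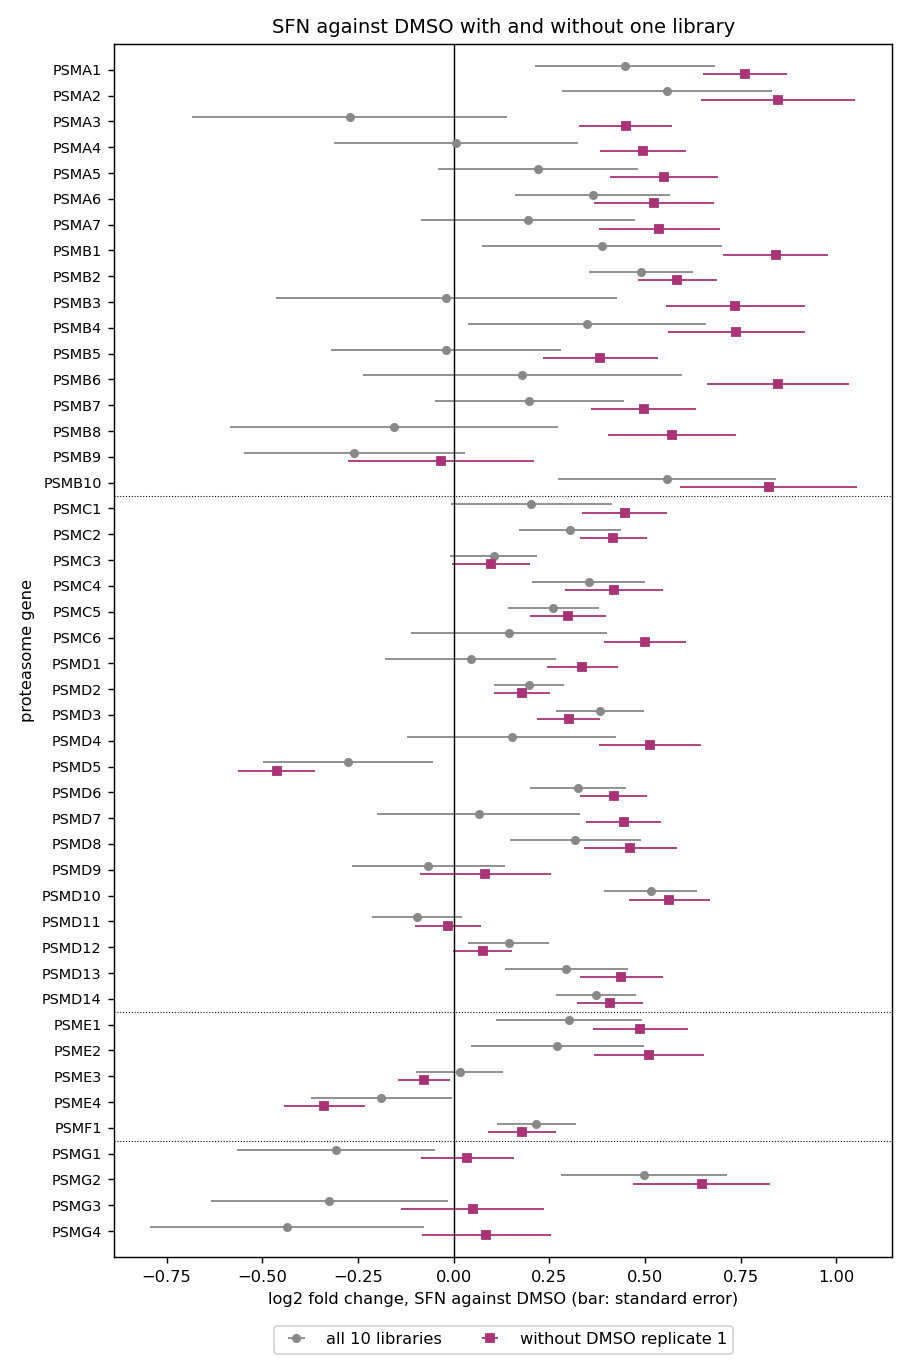
Log2 fold change of SFN against DMSO (horizontal axis) for the 46 proteasome genes (vertical axis) with all 10 libraries (grey circles) and without DMSO replicate 1 (purple squares), with bars of 1 standard error. The squares of the PSMA and PSMB genes lie right of 0 apart from PSMB9. Among the other genes, the squares of PSMD5 and PSME4 lie left of 0, as do, by less, those of PSME3 (-0.08) and PSMD11 (-0.01).

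Among the α subunits of the core none of the 7 passed the test with all 10 libraries, and all 7 rose without DMSO replicate 1. The share of all genes tested that rose was 9.07% with all 10 libraries and 22.5% without DMSO replicate 1. PSMA3, the α subunit with the lowest fold change, stood at 459.8, 115, 106, 102 and 107 CPM in DMSO and 151, 177, 154.5, 150.3 and 104 CPM in SFN. DMSO replicate 1 exceeded every other library, while SFN replicates 1 to 4 exceeded DMSO replicates 2 to 5. The log2 fold change of PSMA3 was -0.27 (SE 0.412) with all libraries and 0.45 (SE 0.122) without the first, where it passed under 12 of 13 further alternatives and lost the call with the length offset. PSMA2 had the highest fold change of the α subunits, 0.56 (SE 0.274) and 0.85 (SE 0.201), from only 43 to 91 counts per library, and stood at 5.605, 2.51, 2.57, 2.71 and 2.545 CPM in DMSO and 5.42, 6.30, 3.50, 4.72 and 3.46 CPM in SFN.

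Of the 10 β subunits, PSMB2 rose with all libraries and 8 rose without DMSO replicate 1, the exceptions being PSMB5 and PSMB9. The background in these fits was 9.07% and 22.5% of all genes tested higher. The protease sites of the constitutive core lie in PSMB5 (chymotrypsin-like activity), PSMB6 (caspase-like) and PSMB7 (trypsin-like). PSMB5 stood at 171, 66.6, 70.5, 60.8 and 60.7 CPM in DMSO and 87.8, 115, 85.9, 79.6 and 56.1 CPM in SFN, PSMB6 at 343, 97.2, 69.4, 89.2 and 88.3 CPM and 147, 236, 161, 131 and 104 CPM, and PSMB7 at 195, 98.9, 79.4, 88.6 and 91.3 CPM and 136, 159.7, 129, 123 and 87.1 CPM. In all of these genes DMSO replicate 1 was the highest library and SFN replicate 2 the highest of the SFN libraries. The log2 fold changes with all libraries were -0.02 (SE 0.3), 0.18 (SE 0.417) and 0.20 (SE 0.247), and none passed. Without DMSO replicate 1, PSMB6 rose by 0.85 (SE 0.185) and PSMB7 by 0.50 (SE 0.137) on the log2 scale, while PSMB5 was at 0.38 (SE 0.151, edgeR adjusted p = 0.0515, and 0.00075 to 0.34 over 13 alternatives).

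PSMB8, PSMB9 and PSMB10 are the catalytic subunits of the immunoproteasome, which interferon induces and which replace the constitutive ones. PSMB8 stood at 165, 41.1, 38.35, 39.1 and 34.7 CPM in DMSO and 61.5, 65.9, 67.1, 58.7 and 32.3 CPM in SFN, with SFN replicate 5 the lowest of all 10 libraries. Its log2 fold change was -0.16 (SE 0.429), and 0.57 (SE 0.168) without DMSO replicate 1, where it passed. PSMB9 had 21 to 90 counts and stood at 5.605, 3.55, 2.96, 2.89 and 2.31 CPM in DMSO and 2.68, 3.54, 3.28, 3.51 and 1.48 CPM in SFN, with overlapping groups in both fits and log2 fold changes of -0.26 (SE 0.289) and -0.03 (SE 0.242). PSMB8 and PSMB9 overlap on opposite strands of chromosome 6, and since the use of strand in counting was not given in the sources used here, their reads may be mixed. PSMB10, with 23 to 60 counts, stood at 3.74, 2.05, 1.29, 2.41 and 1.48 CPM in DMSO and 3.40, 3.88, 3.20, 3.31 and 2.33 CPM in SFN. Its log2 fold change of 0.56 (SE 0.284) did not pass, and 0.82 (SE 0.231) without DMSO replicate 1 did.

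In the whole core 1 of 17 genes rose with all libraries, with a median log2 fold change of 0.20, and 15 rose without DMSO replicate 1, with a median of 0.57. The background in these fits was 9.07% and 22.5% of all genes tested higher. With an offset for transcript length added to the latter fit, 12 core genes rose, none fell and the median was 0.44, against a background of 24.0% higher and 23.0% lower.

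In the 19S particle 3 of 20 genes rose and none fell with all libraries, 6 were higher at an unadjusted p under 0.05 and the median log2 fold change was 0.20. Without DMSO replicate 1, 14 rose and 1 fell, with a median of 0.41, and with the length offset as well 15 rose and 1 fell, with a median of 0.28. The background was 9.07% higher and 13.9% lower with all libraries, and 22.5% and 23.5% without DMSO replicate 1. With the offset as well it was 24.0% and 23.0%. Among the ATPases PSMC4 had the highest fold change with all libraries and PSMC3 the lowest. PSMC4 stood at 61.6, 49.0, 54.1, 47.65 and 43.9 CPM in DMSO and 63.5, 86.4, 65.2, 61.3 and 50.8 CPM in SFN, with a log2 fold change of 0.35 (SE 0.148, edgeR adjusted p = 0.112), and 0.42 (SE 0.128) without DMSO replicate 1. PSMC3 stood at 223, 247, 201, 249.5 and 204 CPM in DMSO and 277, 246, 231, 251 and 205 CPM in SFN, and the groups overlapped. Its log2 fold change was 0.10 (SE 0.114), and 0.10 (SE 0.101) without DMSO replicate 1, in which fit the other 5 ATPases rose. The non-ATPase genes counted 9 of 14 higher and 1 lower without DMSO replicate 1.

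The gene that fell was PSMD5 (chr9:120815496-120842951), a chaperone of 19S base assembly that is absent from the finished particle. It stood at 9.90, 24.3, 25.05, 23.0 and 26.4 CPM in DMSO and 18.5, 16.05, 17.65, 17.0 and 20.6 CPM in SFN. DMSO replicate 1 was the lowest of all libraries and DMSO replicates 2 to 5 all lay above the SFN range. PSMD5 had a log2 fold change of -0.28 (SE 0.222, edgeR adjusted p = 0.43) with all libraries and -0.46 (SE 0.0999, edgeR adjusted p = 0.00201) without DMSO replicate 1, where the adjusted p was 0.00012 to 0.0092 over 13 further alternatives. PSMD10, the other base chaperone described, rose in the same fit.

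Of PSME1 to PSME4 and PSMF1, none passed with all libraries, and the median log2 fold change was 0.22. PSME1, which with PSME2 forms the interferon-inducible 11S cap, stood at 248.5, 167, 128, 159.7 and 128 CPM in DMSO and 222.5, 246, 214, 176 and 166 CPM in SFN. Its log2 fold change was 0.30 (SE 0.19), and 0.49 (SE 0.124) without DMSO replicate 1, in which fit PSME1 and PSME2 rose. PSME4 (chr2:53864069-53970993), the large cap protein PA200, stood at 69.25, 125, 131, 136 and 139 CPM in DMSO and 108, 83.1, 108, 102 and 127 CPM in SFN. DMSO replicate 1 was again the lowest library, and SFN replicate 5 lay within the range of the other DMSO libraries. The log2 fold change of PSME4 was -0.19 (SE 0.185) with all libraries and -0.34 (SE 0.106, edgeR adjusted p = 0.0179, and 0.00099 to 0.13 over 13 alternatives) without DMSO replicate 1. The 5 genes had 2 higher and 1 lower call and a median of 0.18 without DMSO replicate 1. The background in that fit was 22.5% of all genes tested higher and 23.5% lower. With the length offset added, PSME4 was no longer called, PSME1 and PSMF1 rose and the median was 0.19. The background was then 24.0% higher and 23.0% lower.

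The upstream windows of the genes that fell without DMSO replicate 1 are chr9:120842923-120843172 for PSMD5 and chr2:53970994-53971243 for PSME4 (both GRCh38.p14, minus strand, RefSeq), shown because both hold the TGACNNNGC motif in capitals. GENCODE places the start of PSMD5 inside this window.
PSMD5: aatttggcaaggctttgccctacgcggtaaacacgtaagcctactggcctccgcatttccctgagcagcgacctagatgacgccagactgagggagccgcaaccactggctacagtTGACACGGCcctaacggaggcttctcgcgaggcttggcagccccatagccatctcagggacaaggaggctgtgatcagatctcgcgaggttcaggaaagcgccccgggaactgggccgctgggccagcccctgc
PSME4: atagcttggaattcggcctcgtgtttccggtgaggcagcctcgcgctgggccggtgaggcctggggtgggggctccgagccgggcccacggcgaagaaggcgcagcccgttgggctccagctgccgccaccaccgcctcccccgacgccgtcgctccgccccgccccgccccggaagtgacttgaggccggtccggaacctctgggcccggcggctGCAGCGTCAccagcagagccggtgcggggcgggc
The matches are TGACACGGC in PSMD5 and GCAGCGTCA, the motif on the other strand, in PSME4.

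The 4 chaperones of α ring assembly did not pass with all libraries, and 3 of them had negative log2 fold changes, with a median of -0.32. PSMG4 stood at 57.0, 21.1, 14.7, 18.7 and 15.98 CPM in DMSO and 19.25, 26.3, 17.65, 18.1 and 12.9 CPM in SFN, with a log2 fold change of -0.44 (SE 0.358), and 0.09 (SE 0.169) without DMSO replicate 1. PSMG2 stood at 30.0, 19.9, 16.05, 18.4 and 21.3 CPM in DMSO and 28.85, 45.8, 26.2, 26.9 and 21.5 CPM in SFN. The log2 fold change of PSMG2 was 0.50 (SE 0.218) with all libraries and 0.65 (SE 0.179) without DMSO replicate 1, when it alone of the 4 rose and the median was 0.07. This 1 of 4 lay near the background, as 22.5% of all genes tested rose in that fit. With the length offset the median was -0.11 and PSMG2 still rose, as did 24.0% of all genes tested.

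Summed over the members of each particle, the 20S genes stood at 3278, 1229, 1078, 1153 and 1152 CPM in DMSO replicates 1 to 5 and at 1751, 2308, 1760, 1647 and 1246 CPM in SFN replicates 1 to 5. The 19S genes summed to 5384, 3846, 3555, 3771 and 3543 CPM in DMSO and to 4724, 5083, 4572, 4397 and 4123 CPM in SFN. All SFN sums lay above DMSO replicates 2 to 5 and below DMSO replicate 1. The ratio of the 20S sum to the 19S sum was 0.609 in DMSO replicate 1 and 0.303 to 0.325 in the other DMSO libraries, and in SFN it was 0.371, 0.454, 0.385, 0.375 and 0.302. DMSO replicate 1 and SFN replicate 2, with the highest ratios, also had the lowest length slopes, and SFN replicate 5, with the lowest ratio, had the highest length slope in SFN. The part of transcript length in the ratio was not tested.

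**Figure D4:**
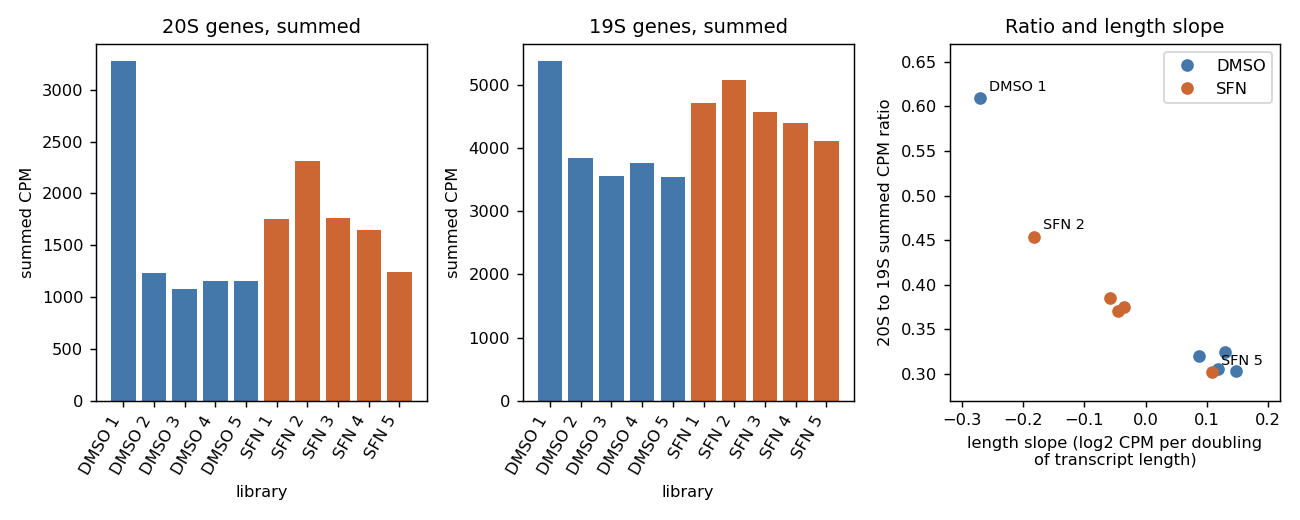
Summed CPM of the 20S genes (left) and the 19S genes (middle) in each library, and the ratio of the sums against the slope of log2 CPM on log2 transcript length (right, 1 point a library). DMSO replicate 1 has the highest sums and, at 0.609, the highest ratio, and SFN replicate 2, with the next lowest slope, has the next highest ratio.

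RefSeq promoters were found for 40 of the 46 members, with 49 windows of 250 bases, and not for PSMA7, PSMB1, PSMB6, PSMB7, PSMD4 and PSMG3. TGACNNNGC occurred in 13 of the 49 windows (26.5%), against 11.7% of the windows of all genes tested and 10.9% of all windows in the table. The 13 members with a match had a median log2 fold change of 0.01, and 0.30 without DMSO replicate 1, when 7 of them rose. The 27 members without one had medians of 0.22 and 0.44, and 20 rose in the latter fit. In that fit 22.5% of all genes tested rose, so both shares lay above the background. The difference between members with and without a match was not tested. CCAAT occurred in 18 windows (36.7%, against 33.1% of the windows of genes tested), and the heat shock element, as spaced repeats of GAA, TTC and GAA on either strand, in none (against 0.337%). A match of letters is not evidence of binding.

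Of 12 genes for proteins that bind, assemble or import the proteasome, 5 rose and none fell with all libraries, and 8 rose without DMSO replicate 1. The shares higher were 41.7% and 66.7%, against 9.07% and 22.5% of all genes tested. AKIRIN2, which carries proteasomes into the nucleus, stood at 28.0, 33.35, 22.1, 30.5 and 31.3 CPM in DMSO and 56.6, 64.8, 54.1, 60.1 and 52.5 CPM in SFN. The groups did not overlap, and the log2 fold change was 0.99 (SE 0.126, edgeR adjusted p = 0.000174), and 0.97 (SE 0.116) without DMSO replicate 1. ZFAND2A (AIRAP), an arsenite-inducible proteasome-binding protein, stood at 37.2, 13.6, 11.3, 13.0 and 12.2 CPM in DMSO and 59.1, 90.9, 60.4, 56.75 and 43.99 CPM in SFN, with a log2 fold change of 1.83 (SE 0.339, edgeR adjusted p = 0.00219), and 2.30 (SE 0.173) without DMSO replicate 1. ZFAND5, which stimulates the proteasome in wasting muscle, rose by 0.53 (SE 0.105), PAAF1, which binds the ATPases, by 0.48 (SE 0.113) and ADRM1, a ubiquitin receptor of the 19S particle, by 0.47 (SE 0.134) on the log2 scale. These values were 0.46 (SE 0.0788), 0.51 (SE 0.105) and 0.55 (SE 0.106) without DMSO replicate 1. AKIRIN2, ZFAND2A, ZFAND5 and PAAF1 passed under all 18 alternatives and ADRM1 under 11 of 18.

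POMP and SEM1, a maturation factor of the core and the smallest subunit of the lid respectively, passed without DMSO replicate 1 and not with it. POMP stood at 372, 152.5, 137, 149.8 and 154 CPM in DMSO and 281, 469.5, 282, 255.5 and 218 CPM in SFN, so that SFN replicate 2 was the highest library and DMSO replicate 1 the next. POMP had a log2 fold change of 0.64 (SE 0.3, edgeR adjusted p = 0.152), and 1.02 (SE 0.172) without DMSO replicate 1, where it passed. SEM1 was at -0.12 (SE 0.35) and 0.41 (SE 0.148) in the respective fits, and passed in the latter. That SEM1 call held under 6 of 13 further alternatives, with edgeR or DESeq2 adjusted p from 0.00067 to 0.8, and with the length offset the log2 fold change was -0.03.

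Of all genes tested, 9.07% rose and 13.9% fell with all libraries, and 22.5% rose without DMSO replicate 1. Of 8 regulators of the proteasome genes 4 rose and none fell, and 5 rose without DMSO replicate 1. NFE2L1, the gene of NRF1, was among the others, at 349, 515, 496, 492 and 454 CPM in DMSO and 476, 417, 473, 509.7 and 562 CPM in SFN and a log2 fold change of 0.08 (SE 0.13, edgeR adjusted p = 0.716), and -0.01 (SE 0.0898) without DMSO replicate 1. NFE2L2, the gene of NRF2, stood at 128, 98.7, 87.7, 103 and 100.1 CPM in DMSO and 160.2, 171, 164, 161 and 175 CPM in SFN and rose by 0.69 (SE 0.11, edgeR adjusted p = 0.000886) on the log2 scale, and by 0.77 (SE 0.0758) without DMSO replicate 1. The small MAF genes, whose proteins pair with NRF1 and NRF2 on DNA, all rose, with log2 fold changes of 1.41 (SE 0.139) for MAFG, 1.12 (SE 0.13) for MAFF and 0.49 (SE 0.121) for MAFK, and of 1.54 (SE 0.084), 1.11 (SE 0.123) and 0.44 (SE 0.106) without DMSO replicate 1. DDI2, the protease that releases NRF1 from the endoplasmic reticulum, fell, from 36.1, 65.0, 75.6, 68.6 and 72.1 CPM in DMSO to 39.3, 37.7, 39.3, 39.7 and 53.4 CPM in SFN, with DMSO replicate 1 the lowest library. The log2 fold change of DDI2 was -0.60 (SE 0.189, edgeR adjusted p = 0.0396), and it passed under 9 of 18 alternatives, with adjusted p from 9.5e-08 to 0.096. It was -0.75 (SE 0.107) without DMSO replicate 1.

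DDI2 belonged to 12 ubiquitin shuttle and unfolding factors, of which 1 rose and 2 fell with all libraries and 4 rose and 2 fell without DMSO replicate 1. These were 8.33% higher and 16.7% lower, near the 9.07% and 13.9% of all genes tested. Without DMSO replicate 1 they were 33.3% and 16.7%, against 22.5% and 23.5%. FAF2, which recruits the unfoldase VCP to membranes, rose by 0.65 (SE 0.192) on the log2 scale, and the shuttle factor UBQLN2 fell, with a log2 fold change of -0.43 (SE 0.112). FAF2 was at 0.49 (SE 0.11) and UBQLN2 at -0.45 (SE 0.106) without DMSO replicate 1. Of 5 ubiquitin genes and E1 enzymes, 1 rose and none fell, and 4 rose without DMSO replicate 1. UBB, a polyubiquitin gene, stood at 1167, 447.5, 414.5, 375 and 389.7 CPM in DMSO and 698, 1080, 726, 679 and 518 CPM in SFN, with a log2 fold change of 0.41 (SE 0.324), and 0.86 (SE 0.158) without DMSO replicate 1, where it passed. UBA1, the main ubiquitin-activating enzyme, rose by 0.36 (SE 0.109) on the log2 scale and passed under 7 of 18 alternatives, with 0.31 (SE 0.0842) without DMSO replicate 1.

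Among 9 genes of antigen processing that act with the immunoproteasome, none rose and 1 fell with all libraries, and 1 rose and 3 fell without DMSO replicate 1. The shares lower were 11.1% and 33.3%, against 13.9% and 23.5% of all genes tested. The share higher in the latter fit was 11.1%, against 22.5%. The gene that fell in both fits was IRF1, the interferon-responsive activator of the immunoproteasome genes, which stood at 14.1, 13.7, 15.0, 11.1 and 10.95 CPM in DMSO and 3.46, 3.19, 3.05, 2.77 and 2.82 CPM in SFN. IRF1 had a log2 fold change of -2.08 (SE 0.143, edgeR adjusted p = 2.09e-06), and -2.06 (SE 0.144) without DMSO replicate 1, whereas PSMB8, PSMB9 and PSMB10 had no lower call in either fit. Of 7 known NRF2 targets, 3 rose with all libraries, with log2 fold changes of 1.61 (SE 0.185) for the cystine transporter gene SLC7A11, 1.42 (SE 0.122) for heme oxygenase HMOX1 and 1.30 (SE 0.17) for the glutathione synthesis gene GCLM. These were 1.52 (SE 0.165), 1.49 (SE 0.099) and 1.504 (SE 0.0778) without DMSO replicate 1. With all libraries these 3 exceeded the highest value of any proteasome member, 0.56. The other 4 were not called, at 0.61 for TXNRD1, 0.40 for SRXN1, 0.31 for NQO1 and -0.30 for GCLC. Without DMSO replicate 1, 5 of the 7 rose, and GCLC was again at -0.30. The shares higher were 42.9% and 71.4%, against 9.07% and 22.5% of all genes tested.

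Reads of close copies could be split between genes. The table listed 21 genes named as PSM pseudogenes, of which 3 reached 10 counts in a library, PSMC1P1 with 56 to 170 counts and the others with at most 21. Of 5 antisense genes of members, 4 reached 10 counts. Of the members, 28 overlapped another GENCODE gene, 9 of them a gene of at least 10 CPM, and PSMC2 overlapped such a gene, PMPCB, on its own strand. The highest on the opposite strand were DNAJC2 at PSMC2 (mean 158.5 CPM), FTSJ3 at PSMC5 (124.3 CPM) and BECN1 at PSME3 (122.1 CPM). PSMA3-AS1 at PSMA3 had 56.35 CPM. Since the use of strand in counting is not given, reads of such pairs may also be mixed. The part of shared reads in the results was not tested.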

How the data were processed

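RNA of RPE-1 cells was sequenced after 4 h with DMSO or 25 µM SFN (5 samples each). The paper's methods name Lexogen QuantSeq libraries and the Bluebee pipeline, whereas the labels mention Illumina preparation and the submitters' processing notes name FastQC, STAR, featureCounts, edgeR and GRCh38. Versions and the use of strand or molecular identifiers are not given in the sources used here. The authors deposited raw read counts per gene without normalization. No pair of replicates agreed within sampling noise by a chi-square test of counts.

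Here genes were filtered with filterByExpr, libraries scaled by TMM, and SFN compared with DMSO in edgeR 4.0.16 (R 4.3.3) by glmQLFit and glmQLFTest with Benjamini-Hochberg adjustment over all genes tested, at an adjusted p under 0.05. Standard errors (SE) were obtained from the F statistic, as the size of the log2 fold change over its root. CPM are scaled by TMM. Precision depends on 12375860 to 20666692 counts per library. The procedure was tested on simulated counts: of 200 genes changed 2-fold among 13295, 93% were recovered, and 4.62% of calls were false. The simulation gave all genes the same dispersion and had no deviating library like DMSO replicate 1. No member changed by more than 2-fold, so these rates do not apply to the calls of the members. Positions are those of GENCODE 44.

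Alternatives were other normalizations and tests (DESeq2 1.42.0 and limma 3.58.1), no filter, sample quality weights, a length offset, a replicate block and each library left out. Further fits without DMSO replicate 1 were chosen after seeing the data. The members and lists were chosen with earlier results of these data known. Genes named are members past the threshold, the catalytic subunits and the members of highest and lowest fold change in each family. In each list they are the genes past the threshold, at most 4 by size. NFE2L1, NFE2L2, POMP, ADRM1, SEM1, PAAF1 and UBB were also named. PSMD2, CD14 and the NRF2 targets not called were named after their values were seen. Lists were described by counts, with no test of the list. A further listed gene is not reported here.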

Additional observations from a re-analysis of the deposited data

Results flagged for a closer look

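In 102 groups of 5 values (each member and each summed particle in DMSO and in SFN), 34 had a highest or lowest library whose gap to the nearest other, divided by the range of the group, exceeded 0.71. Chance would give about 5.1 such groups if the groups were independent and their values normally distributed. The groups here share the same 10 libraries and the sums are built from the members, so the 2 numbers cannot be compared as a test. In 29 of the 34 flagged groups DMSO replicate 1 was the highest DMSO library. The ratio of gap to range was 0.843 in PSMA1, 0.934 in PSMA2, 0.963 in PSMA3, 0.922 in PSMA4, 0.848 in PSMA5, 0.88 in PSMA7, 0.891 in PSMB1, 0.955 in PSMB3, 0.919 in PSMB4, 0.912 in PSMB5, 0.899 in PSMB6, 0.831 in PSMB7 and 0.951 in PSMB8 among the core genes. Among the 19S genes it was 0.766 in PSMC1, 0.888 in PSMC2, 0.911 in PSMC6, 0.917 in PSMD1, 0.817 in PSMD4, 0.926 in PSMD7, 0.782 in PSMD9 and 0.884 in PSMD13. It was 0.793 in PSME2, 0.936 in PSMG1, 0.883 in PSMG3 and 0.848 in PSMG4 in the other families, and the summed CPM had ratios of 0.883 for all members, 0.931 for the 20S genes, 0.835 for the 19S genes and 0.966 for the PSMG genes. DMSO replicate 1 was the lowest DMSO library in 3 others, at 0.795 in PSMD5, 0.886 in PSME3 and 0.794 in PSME4. The remaining 2 lay in SFN, where replicate 5 was lowest in PSMB8 (0.759) and replicate 2 highest in PSMD11 (0.857). The part of these libraries' length slopes in the gaps was not tested.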

How the results depend on the processing

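The count of proteasome genes higher in SFN, 4 with all 10 libraries, was 34 with sample quality weights, which gave DMSO replicate 1 a weight of 0.0568, and 2 members were then lower. It was 2 by limma-voom on quantile normalized values, 2 with no low-count filter and 1 with a replicate block, and from 1 to 32 when each library was left out in turn, with 0 to 2 lower. The higher calls numbered 32 without DMSO replicate 1, 2 without DMSO replicate 2, 3, 4 or 5 or SFN replicate 1, 1 without SFN replicate 3, 3 without SFN replicate 2 or 4 and 5 without SFN replicate 5. The cause was not tested. Of the core genes 1 was called, 16 with the weights, 0 with the block and 0 to 15 with a library left out, and of the 19S genes 3, and 5 by the DESeq2 Wald test, 1 by quantile normalization, 16 with the weights, 1 with no filter, 1 with the block and 1 to 15 with a library left out. For PSME and PSMF the weights gave 3 calls and leaving out a library 0 to 3, and for PSMG 1 and 0 to 1. The median log2 fold change of the members, 0.20, lay between 0.12 and 0.45 with a library left out. Without DMSO replicate 1, adding a length offset moved the median from 0.45 to 0.28 and the lower calls from 2 to 1, and leaving out a further library gave 30 to 35 higher calls, 1 to 2 lower calls and medians of 0.38 to 0.51.

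Of the partner genes, 5 called, the weights gave 9 and leaving out a library 4 to 8. The shuttle and unfolding factors, 3 called, had 6 by the DESeq2 Wald test, 8 with the weights, 1 with the block, 7 with a length offset and 1 to 6 with a library left out. The ubiquitin and E1 genes, 1 called, had 0 by quantile normalization, 4 with the weights, 0 with no filter, 0 with the block and 0 to 4 with a library left out, with 4 without DMSO replicate 1, 1 without SFN replicate 5 and 0 without any of the others. The antigen processing genes, 1 called, had 2 by DESeq2, 4 with the weights and 1 to 4, and the NRF2 targets, 3 called, had 5 with the weights and 3 to 5 with a library left out.

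Log2 fold changes that changed sign were, by quantile normalization, 0.278 for PSMB3, 0.0572 for PSMB5, 0.129 for PSMB8, 0.135 for PSMD9, -0.0686 for PSME3, 0.028 for SEM1 and -0.0748 for NFE2L1. With the weights they were 0.464 for PSMA3, 0.65 for PSMB3, 0.384 for PSMB5, 0.618 for PSMB8, 0.131 for PSMD9, 0.0142 for PSMD11, -0.0693 for PSME3, 0.0116 for PSMG1, 0.0107 for PSMG3, 0.421 for SEM1 and -0.0105 for NFE2L1. With the replicate block they were 0.0424 for PSMA3, 0.282 for PSMB3, 0.08 for PSMB5, 0.129 for PSMB8 and 0.0709 for SEM1, and with upper quartile factors -0.0321 for PSMA4 and -0.017 for PSME3. With a library left out, signs changed within ranges of -0.00963 to 0.135 for NFE2L1, -0.42 to 0.45 for PSMA3, -0.119 to 0.495 for PSMA4, -0.19 to 0.737 for PSMB3, -0.143 to 0.384 for PSMB5, -0.00587 to 0.848 for PSMB6, -0.312 to 0.57 for PSMB8, -0.0376 to 0.336 for PSMD1, -0.0345 to 0.444 for PSMD7, -0.159 to 0.0831 for PSMD9, -0.0772 to 0.0436 for PSME3, -0.415 to 0.0362 for PSMG1, -0.502 to 0.0496 for PSMG3, -0.583 to 0.0852 for PSMG4 and -0.279 to 0.41 for SEM1. None of these genes was called with all 10 libraries. Without DMSO replicate 1, DESeq2 gave 0.0071 for PSMD11 and 0.0108 for NFE2L1, and the length offset -0.052 for PSMC3, 0.0524 for PSMD11, -0.091 for PSMG1, -0.134 for PSMG3, -0.238 for PSMG4, -0.0331 for SEM1 and 0.103 for NFE2L1. A further library left out gave -0.0591 to 0.0461 for NFE2L1, -0.13 to 0.138 for PSMB9, -0.0488 to 0.0669 for PSMD11, -0.0147 to 0.17 for PSMD9, -0.0726 to 0.118 for PSMG1, -0.125 to 0.188 for PSMG3 and -0.0538 to 0.199 for PSMG4.

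The correlations of the deviations of same-numbered samples were 0.0394, -0.267, -0.0605, 0.0308 and 0.484 for numbers 1 to 5. Not every sample correlated best with its own number. These deviations include DMSO replicate 1, so they cannot show whether the samples were paired. The paper's methods say that its own model allowed for dependence between repeated measures. The depth of 12375860 to 20666692 counts per library gave PSMA2, PSMB9 and PSMB10 at most 91 counts in a library, so that relative counting error is larger in them than in the other members named.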
